A study of Mus musculus with 12 samples.

Results

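A set of 8 genes that glucocorticoids induce in brain and the 2 corticosteroid receptors were followed through 12 libraries of mouse medial prefrontal cortex. The 10 genes are Zbtb16, Tsc22d3, Fkbp5, Sgk1, Plin4, Fmo2, Xdh, Sult1a1, Nr3c1 and Nr3c2, matched by Ensembl gene ID to 10 of the 55401 rows of the count table. All 10 passed the filter on low counts that left 21958 genes for testing. They were picked with the differences of both morphine groups from saline already known, in part because they differed there, so their values in those comparisons are a description and carry no test.

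All 12 libraries came from male mice at 2 weeks of extinction of a morphine-conditioned place preference, in which an animal stops preferring a chamber once paired with the drug. Every mouse carried an adeno-associated virus. The first group had a scramble virus and saline, the second the same scramble virus and morphine, and the third a virus against the serotonin receptor 5-HT6R with morphine, with 4 libraries each. No knockdown group with saline was analysed here, so virus and drug differ together between the third group and the first. The labels name neither the promoter of the virus nor the cells it entered, and they do not give the ages of the mice or say whether each library is 1 animal.

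Corticosterone, the main glucocorticoid of mice, enters cells and binds 2 related nuclear receptors. The mineralocorticoid receptor, encoded by Nr3c2, binds it tightly and is largely occupied at rest, while the glucocorticoid receptor, encoded by Nr3c1, fills during stress and at the daily hormone peak. Bound receptors move to the nucleus, pair on palindromic DNA elements and raise transcription of genes such as Fkbp5, Tsc22d3 and Sgk1, which therefore serve as readouts of hormone action in brain tissue.

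Total counts ran from 41483220 to 65739423 per library. Levels are given in CPM, counts relative to library size after scaling the libraries by the trimmed mean of M values. Htr6, the gene of the targeted receptor, stood between 4.35 and 7.98 CPM with saline, between 4.82 and 5.58 with scramble and morphine and between 3.82 and 5.46 with the knockdown, so the groups overlapped and this gene does not check the labels. All 10 markers of cortical excitatory neurons were detected in every library, with a summed level of 4490 to 5880 CPM, against 174 to 249 CPM for 8 markers of striatal projection neurons. The ribosomal RNA locus CT010467.1 held 2.38 to 3.04% of a library with scramble and morphine, 3.58 to 5.63% with saline, and 4.57 to 9.38% with the knockdown, without overlap between the scramble morphine group and either other group. In bulk tissue, fewer cells of a type and less RNA per cell cannot be told apart.

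Zbtb16, which encodes the zinc finger transcription factor PLZF, was higher in every morphine library than in any saline library. It stood at 46.4, 47.7, 44.9 and 46.6 CPM in the saline libraries of replicates 2, 3, 4 and 5. With scramble and morphine it reached 57.5, 69.7, 62.8 and 56.8 CPM in replicates 1, 3, 4 and 5, and with the knockdown 61.3, 61.3, 68.7 and 67.9 in replicates 1, 2, 3 and 5. This order of replicates holds for the values of the other genes. The saline group was narrow, 46.4 ± 1.16 CPM (SD, n = 4), with a coefficient of variation of 2.51%, and the morphine groups, at 61.7 ± 5.95 and 64.8 ± 4.08, overlapped each other. Zbtb16 lies on mm10 chromosome 9 (48654297 to 48836222, minus strand).

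Tsc22d3 encodes GILZ, a leucine zipper protein that restrains inflammatory signalling. It stood at 46.8, 53.9, 41.7 and 49.4 CPM with saline, at 74.8, 73.3, 62.0 and 61.3 with scramble and morphine, and at 49.1, 56.5, 55.9 and 81.1 with the knockdown. All 4 scramble morphine libraries lay above the saline libraries. The knockdown group spread most: replicate 5 held the highest value of all 12 libraries, and replicate 1 lay within the saline range. Its group means were 48.0 ± 5.10, 67.9 ± 7.19 and 60.6 ± 14.1 CPM (SD, n = 4). The gene lies on chromosome X (140539528 to 140600659, minus strand).

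Fkbp5 encodes FKBP51, a co-chaperone of HSP90 that lowers hormone binding by the glucocorticoid receptor and so closes a feedback loop. It stood at 36.2, 41.1, 24.1 and 39.9 CPM with saline, 48.7, 51.1, 39.7 and 41.1 with scramble and morphine, and 39.5, 43.7, 39.5 and 51.9 with the knockdown. The 3 groups overlapped, and saline replicate 4 was the lowest library by a wide margin. Sgk1 encodes a kinase induced by serum and glucocorticoids that regulates ion channels and transporters. Its levels were 46.4, 64.8, 49.6 and 55.8 CPM with saline, 64.8, 63.3, 57.2 and 63.5 with scramble and morphine, and 51.9, 56.9, 62.9 and 70.4 with the knockdown, again with overlap of all 3 groups. Fkbp5 lies on chromosome 17 (28399094 to 28517527, minus strand) and Sgk1 on chromosome 10 (21882184 to 21999903, plus strand).

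**Figure D1:**
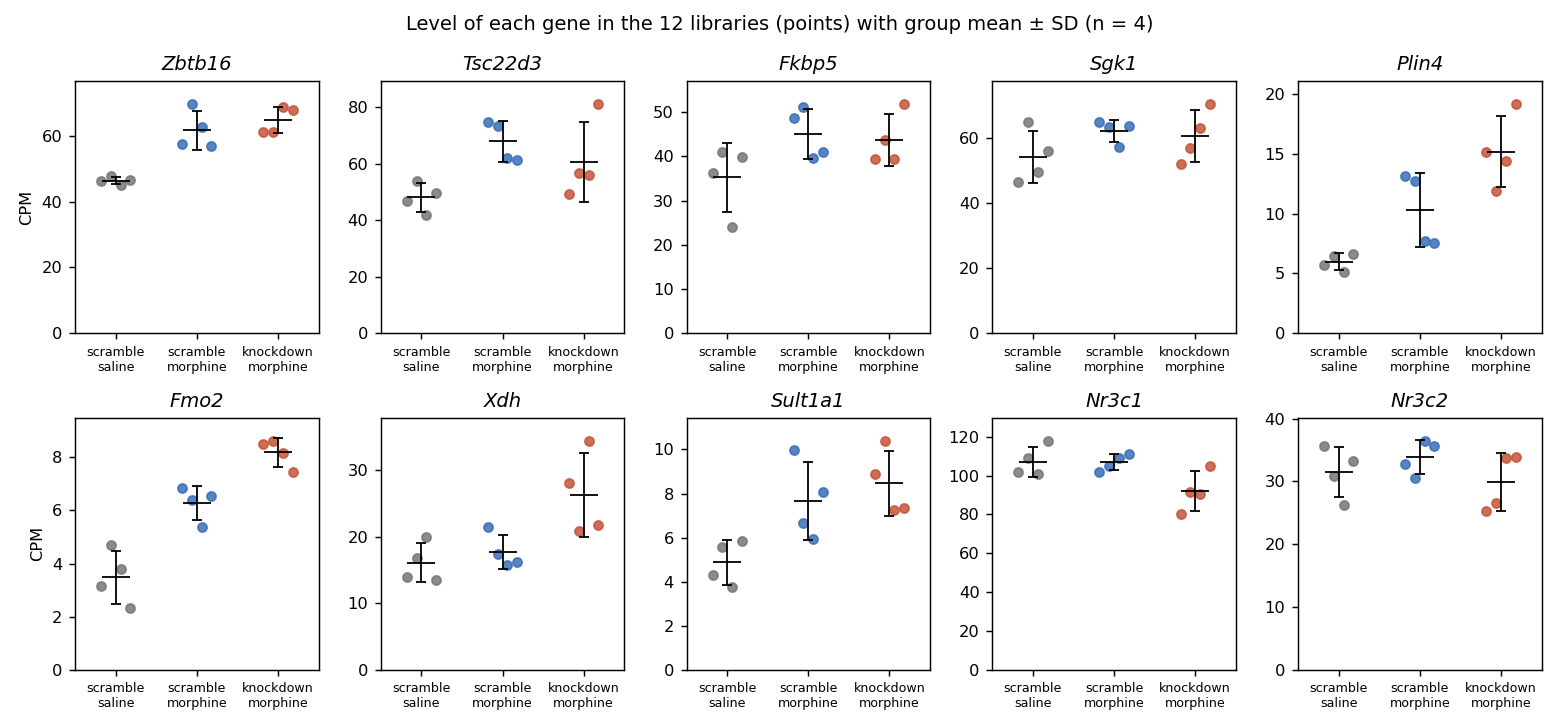
Level of each gene in CPM (vertical axes, from 0) in the 3 groups, with 1 point per library and the group mean ± SD (n = 4) in black. Zbtb16 lies at 44.9 to 47.7 CPM with saline and at 56.8 or more in all morphine libraries, Fmo2 steps from group to group without overlap, and Nr3c1 is lowest on average with the knockdown.

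The receptor-binding element was searched in promoter sequence, since bound receptors pair on it. RefSeq promoter windows of build GRCm38.p6, from 250 bases before to 50 after a transcript start, were at hand for 15 starts of 7 of the genes: Plin4, Fmo2, Tsc22d3, Fkbp5, Sgk1, Sult1a1 and Nr3c2. The patterns searched, on both strands, were the hexamer AGAACA, to which 1 receptor of a pair binds, the full palindrome of this hexamer and its reverse complement with 3 bases of any kind between them, and a looser core palindrome that leaves some of those letters free and that every full palindrome contains. The full palindrome was found in 1 of the 15 windows, against 3 of all 32851 mouse promoter windows (0.00913%), and the core in the same 1 window, against 0.475% of all. That window belongs to 1 of the 6 annotated Sgk1 starts and is shown for this match, which begins 189 bases before the start (chr10:21993701-21993715). The 250 bases before that start, chr10:21993640-21993889 on the plus strand, carry the palindrome and a further hexamer in capitals and hold no annotated exon.
Sgk1, internal start: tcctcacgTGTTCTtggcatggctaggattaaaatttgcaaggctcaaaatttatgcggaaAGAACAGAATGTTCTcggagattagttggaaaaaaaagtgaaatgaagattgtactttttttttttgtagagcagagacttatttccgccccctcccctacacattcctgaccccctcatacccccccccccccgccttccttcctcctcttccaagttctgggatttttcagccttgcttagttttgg

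The hexamer was found in 6 of the 15 windows, in 4 of the 7 genes, against 19.0% of all promoter windows. Those outside the Sgk1 window above are shown with 10 bases on each side, in capitals and on the strand of the gene, so that the genes with and without one can be set beside their levels.
Tsc22d3, 185 bases before the start, chrX:140600692-140600717, minus strand: gcattcgacaTGTTCTaagttctgag
Sgk1, 195 bases before the start, chr10:21881979-21882004, plus strand: gggaatccgtTGTTCTgtgttttctg
Sgk1, 13 bases before the start, chr10:21992200-21992225, plus strand: agtgggactcAGAACAgaaaggcaat
Fmo2, 125 bases before the start, chr1:162898603-162898628, minus strand: gggacgccagAGAACAcaaccagctt
Sult1a1, 212 bases before the start, chr7:126676615-126676640, minus strand: aaagtcccatTGTTCTaccttaagtt
Sult1a1, 34 bases before the start, chr7:126676437-126676462, minus strand: ttgtttctggAGAACAgccagtccta
Of the 250 bases before the start, annotated exons covered 227 in this Fmo2 window, 137 in this Tsc22d3 window and 14 in that of Sult1a1. The other windows of Fmo2 and Tsc22d3 held no hexamer. The windows of Fkbp5, Plin4 and Nr3c2 held none of these patterns. Between saline and morphine with scramble, the groups of Fmo2, Tsc22d3 and Sult1a1, with the hexamer, did not overlap. Those of Sgk1, with the full palindrome, did. Of the genes with no match, Plin4 had groups that did not overlap, and Fkbp5 and Nr3c2 had groups that did. The genes were picked with this comparison of morphine and saline in view, and 1.55% of all tested genes were higher without overlap in it. A link between matches and levels was not tested. A match is a run of letters and not a measured binding site, and elements outside these windows were not searched.

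Plin4, Fmo2, Xdh and Sult1a1 code for enzymes and a lipid droplet protein. All 4 had their highest group mean with the knockdown, as did Zbtb16. Plin4, a protein that coats lipid droplets, stood at 5.66, 6.46, 5.11 and 6.64 CPM with saline, 13.2, 12.7, 7.68 and 7.56 with scramble and morphine, and 15.2, 11.9, 14.4 and 19.2 with the knockdown. Scramble morphine thus held 2 libraries near 13 CPM and 2 near 7.6, all above saline. Group means were 5.97 ± 0.713, 10.3 ± 3.09 and 15.2 ± 3.00 CPM (SD, n = 4), and the scramble morphine and knockdown groups overlapped. Plin4 lies on chromosome 17 (56100591 to 56109803, minus strand). Its exons share 17 bases with Hdgfl2 on the other strand, and Hdgfl2 stood at 89.5 ± 4.55, 89.3 ± 2.78 and 87.6 ± 1.73 CPM in the same order of groups.

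Fmo2, a flavin-containing monooxygenase that oxidises foreign compounds, was the 1 gene of the 10 in which all 3 groups stood apart. It gave 3.14, 4.70, 3.79 and 2.33 CPM with saline, 6.86, 6.38, 5.39 and 6.53 with scramble and morphine, and 8.51, 8.63, 8.18 and 7.43 with the knockdown. The lowest knockdown library lay above the highest scramble morphine library, and every scramble morphine library lay above every saline library. Of all tested genes, 1.55% were higher without overlap in scramble morphine than in saline. Between knockdown and scramble morphine 2.59% were, and how many did both was not counted. Raw counts of Fmo2 were the lowest of the 10 genes, between 122 and 473 per library. Fmo2 lies on chromosome 1 (162874317 to 162898726, minus strand).

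Xdh encodes xanthine dehydrogenase, which turns purines into uric acid. It stood at 13.9, 16.8, 19.9 and 13.5 CPM with saline, 21.4, 17.4, 15.8 and 16.2 with scramble and morphine, and 28.0, 20.8, 34.4 and 21.8 with the knockdown. The saline and scramble morphine groups overlapped, whereas all 4 knockdown libraries lay above saline and 3 of them above scramble morphine. Sult1a1, a sulfotransferase that inactivates phenols and catecholamines, stood at 4.29, 5.56, 3.76 and 5.86 CPM with saline, 9.98, 6.68, 5.95 and 8.07 with scramble and morphine, and 8.89, 10.4, 7.27 and 7.33 with the knockdown. Both morphine groups lay above saline and overlapped each other. Xdh lies on chromosome 17 (73883895 to 73950196, minus strand) and Sult1a1 on chromosome 7 (126672865 to 126676432, minus strand). Sult1a1 shares up to 61 exon bases with Sgf29 on the other strand. Sgf29 stood at 9.42 ± 0.656, 9.16 ± 1.48 and 10.4 ± 1.52 CPM (SD, n = 4), and whether counting used the strand is not given in the sources used here.

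Neither receptor gene had a morphine group that lay wholly above saline. Nr3c1, the glucocorticoid receptor gene, gave 102, 109, 101 and 118 CPM with saline, 102, 105, 109 and 111 with scramble and morphine, and 80.3, 91.8, 90.7 and 105 with the knockdown. In all, 3 of 4 knockdown libraries lay below all libraries of the other groups, and replicate 5 lay inside their range. Nr3c2, the mineralocorticoid receptor gene, gave 35.6, 30.9, 26.2 and 33.3 CPM with saline, 32.7, 30.6, 36.5 and 35.7 with scramble and morphine, and 25.3, 26.6, 33.7 and 33.9 with the knockdown, with overlap throughout. Per base of exon, Nr3c1 stood 2.90 ± 0.342 times as high as Nr3c2 with saline (SD, n = 4). The ratio was 2.66 ± 0.17 in the scramble morphine group and 2.62 ± 0.267 in the knockdown group. These ratios overlapped between groups. Nr3c2 lies on chromosome 8 (76899442 to 77245012, plus strand), and Nr3c1 on chromosome 18 (39410545 to 39519421, minus strand).

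Morphine was first compared with saline under the scramble virus. All 8 induced genes lay above 0 on the log2 fold scale, where 49.5% of all tested genes did, with a median of 0.46 against -0.001 over all tested genes. Saline and morphine libraries did not overlap for 5 of the 10 genes, all higher with morphine (Zbtb16, Plin4, Fmo2, Tsc22d3 and Sult1a1), where 1.55% of all tested genes were higher and 1.77% lower without overlap. None of the 10 passed an edgeR quasi-likelihood test with Benjamini-Hochberg adjustment at 0.05, which called 0% of all genes. At an unadjusted p under 0.05, 6 of the 10 were higher and 0 lower, against 1.67 and 1.82% of all genes (3.48% in all, 765 genes), while DESeq2 called 6 genes in all, of which 2, Zbtb16 and Fmo2, were among the 10. The genes were picked with this comparison in view, so nothing is read from these counts. The log2 fold change was 0.85 for Fmo2 (standard error, SE, 0.18), 0.79 for Plin4 (SE 0.20), 0.66 for Sult1a1 (SE 0.19) and 0.50 for Tsc22d3 (SE 0.14). It was 0.41 for Zbtb16 (SE 0.07), 0.35 for Fkbp5 (SE 0.15), 0.20 for Sgk1 (SE 0.10) and 0.14 for Xdh (SE 0.17). Fkbp5 was at 0.21 without saline replicate 4 and Sgk1 at 0.13 without saline replicate 2, while Xdh ranged from 0.035 without scramble morphine replicate 1 to 0.26 without saline replicate 4. The receptors had the smallest values, -0.01 for Nr3c1 (SE 0.08) and 0.10 for Nr3c2 (SE 0.11). Nr3c1 turned above 0 when saline replicate 5 was left out (0.041) and when scramble morphine replicate 1 was (0.01).

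In the same libraries all 12 astrocyte markers lay above 0, with a median of 0.19. Their summed level ranged from 4200 to 7090 CPM with saline and from 5840 to 6960 with scramble and morphine, and no marker was at 0 in any library. Saline replicate 4, the lowest of its group for Fkbp5, Tsc22d3, Plin4, Sult1a1 and Zbtb16, was also the lowest for astrocyte markers. It was the highest of its group for Xdh, at 19.9 CPM, and not the lowest for Fmo2 or Sgk1. Markers of mural cells (pericytes and smooth muscle) and meningeal fibroblasts lay above 0 for 10 of 12, with a median of 0.23 and sums of 257 to 382 CPM with saline and 278 to 400 with scramble and morphine. Blood markers lay above 0 for 0 of 7 tested, with a median of -0.75 and sums of 96.9 to 417 and 118 to 187 CPM, and Ly6g, S100a8 and S100a9 were at 0 in some libraries. The part of RNA from these cells in the difference was not tested.

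The second comparison asked what the knockdown changed among mice given morphine. The 10 genes were not picked for it, but it shares its libraries with both comparisons they were picked in, so its p-values are not independent of that choice. The edgeR test called none of the 10, and it called 0% of all tested genes. Of the 8 induced genes 5 lay above 0, against 50.7% of all genes. At an unadjusted p under 0.05, Xdh and Plin4 were higher, as were 5.87% of all genes, and the receptor gene Nr3c1 was lower, as were 6.17%. That threshold held 12% of all genes (2643), and DESeq2 called 164 genes, none of them among the 10.

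Xdh stood 1.48 times as high with the knockdown (95% interval 1.16 to 1.89, log2 fold change 0.57, SE 0.17, edgeR adjusted p = 0.275). Plin4 stood at 1.47 times (1.11 to 1.96, log2 fold change 0.56, SE 0.19, edgeR adjusted p = 0.324). For Fmo2 the fold was 1.3 (0.999 to 1.69, edgeR adjusted p = 0.418), and it was the 1 member whose groups did not overlap here, where 2.59% of all genes were higher and 3.26% lower without overlap. Nr3c1 stood at 0.862 times its scramble level (0.769 to 0.967, log2 fold change -0.21, SE 0.08, edgeR adjusted p = 0.33), lower in 3 of 4 libraries than any scramble library. Without knockdown replicate 5 it passed, at -0.29 (edgeR adjusted p = 0.0496, over all alternatives 0.0496 to 0.962). Without that library 375 of all genes passed, in place of 0, and no other member did.

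The remaining genes had intervals that included no change, as did Fmo2. Tsc22d3 had a fold of 0.894 (0.732 to 1.09), Fkbp5 of 0.968 (0.774 to 1.21), Sgk1 of 0.972 (0.833 to 1.14) and Zbtb16 of 1.05 (0.946 to 1.17) between knockdown and scramble with morphine. Sult1a1 had a fold of 1.1 (0.832 to 1.46) and Nr3c2 of 0.882 (0.746 to 1.04). Without knockdown replicate 5 the log2 fold change of Tsc22d3 moved from -0.16 to -0.34 (edgeR adjusted p = 0.0792), that of Fkbp5 to -0.15 and that of Sgk1 to -0.13. Without knockdown replicate 1 Tsc22d3 was at -0.077. With the ribosomal RNA share in the model, Tsc22d3 and Sgk1 turned above 0 (log2 fold change 0.078 and 0.18), Nr3c2 too (0.051), and Sult1a1 turned below (-0.20).

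Endothelial markers, 10 of 10, and those of mural and meningeal cells, 12 of 12, lay above 0 in this comparison, with medians of 0.25 and 0.39. The summed level of the second list was 278 to 400 CPM with scramble and morphine and 378 to 536 with the knockdown, against 257 to 382 with saline. For endothelium the ranges were 260 to 304 and 289 to 440 CPM, against 275 to 417 with saline. Oligodendrocyte markers lay above 0 for 0 of 10, with a median of -0.32 and sums of 1940 to 2650 CPM with scramble and morphine and 1260 to 2140 with the knockdown. Microglial markers lay above 0 for 1 of 10, with a median of -0.23 and sums of 578 to 863 and 467 to 708 CPM. Astrocyte markers lay above 0 for 3 of 12, with a median of -0.1 and sums of 5840 to 6960 and 5120 to 7420 CPM. The highest astrocyte sum of all 12 libraries was that of knockdown replicate 5. Within groups, over 12 libraries, Xdh had r = 0.44 with endothelial and 0.27 with mural and meningeal markers, 0.61 with microglia and -0.68 with excitatory neurons. Plin4 had 0.41 with endothelial and 0.27 with mural and meningeal markers. Its values were higher with microglia (0.81), astrocytes (0.76) and oligodendrocytes (0.63, and 0.44 for Xdh), and -0.49 with excitatory neurons. Fmo2 had 0.38 with endothelial, -0.23 with mural and meningeal markers, 0.04 with microglia and -0.30 with oligodendrocytes. The part of RNA from these cells in the values of Xdh, Plin4 and Fmo2 was not tested.

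**Figure D2:**
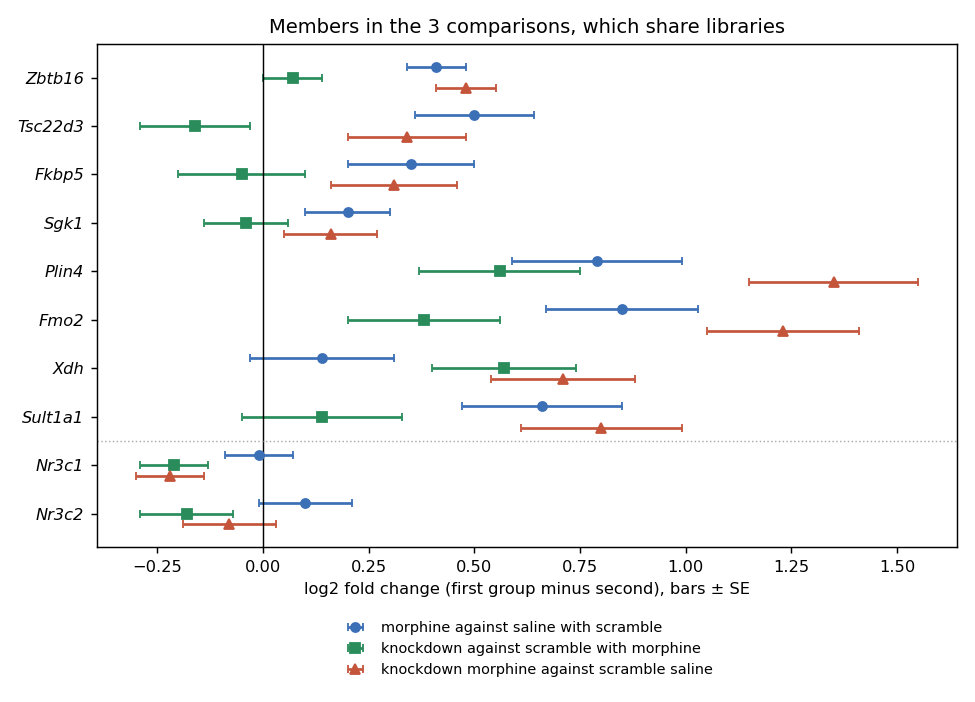
Log2 fold change (horizontal axis) of the 8 induced genes above the dotted line and the 2 receptor genes below it, with bars of ± SE, in the 3 comparisons. Between knockdown and scramble, Tsc22d3, Fkbp5, Sgk1 and Zbtb16 lie at -0.16 to 0.07, Sult1a1 lies at 0.14, and Plin4, Fmo2 and Xdh lie at 0.38 to 0.57.

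The knockdown libraries were last compared with the scramble saline group. All 8 induced genes lay above 0, against 49.6% of all genes, with a median of 0.60 against -0.002 over all genes. Both receptors lay below it, Nr3c1 at -0.22 (SE 0.08) and Nr3c2 at -0.08 (SE 0.11). The edgeR test called 3 of the 10, Plin4, Fmo2 and Zbtb16, and these 3 were all of its calls, 0.0137% of genes. Without overlap, 5 of the 10 were higher, as were 2.18% of all genes, and 0 lower, as were 2.16%, with Xdh in the place that Tsc22d3 held in the first comparison. At an unadjusted p under 0.05, 6 were higher and 1, Nr3c1, lower, against 4.97 and 4.37% of all genes (9.35% in all). These counts are again a description, since the genes were picked on them. In the same comparison mural and meningeal markers lay above 0 for 11 of 12, with a median of 0.79, and blood markers for 0 of 7, with a median of -0.60, and the part of their RNA was not tested. The log2 fold change was 1.35 for Plin4 (SE 0.20), 1.23 for Fmo2 (SE 0.18), 0.80 for Sult1a1 (SE 0.19), 0.71 for Xdh (SE 0.17) and 0.48 for Zbtb16 (SE 0.07). It was 0.34 for Tsc22d3 (SE 0.14), 0.31 for Fkbp5 (SE 0.15) and 0.16 for Sgk1 (SE 0.11). Single libraries moved these last values: without knockdown replicate 5 Tsc22d3 was at 0.16 and Sgk1 at 0.075, and without saline replicate 4 Fkbp5 was at 0.16. Sgk1 was at 0.093 without saline replicate 2 and 0.26 without saline replicate 3, and Nr3c2 ranged from -0.15 to -0.007 as single libraries were left out. All 3 calls ended when any 1 of 9 libraries was left out: replicates 2, 4 and 5 of the saline group, replicates 1, 3 and 5 of scramble morphine, and replicates 1, 2 and 3 of the knockdown. Without scramble saline replicate 3 Fmo2 alone passed, and without scramble morphine replicate 4 or knockdown replicate 5 all 3 did. All 3 also ended with the ribosomal RNA share in the model (edgeR adjusted p = 0.311), and Zbtb16 and Fmo2 ended when the compared groups were fitted alone (0.0581 and 0.184). Over all alternatives that lost a call the edgeR adjusted p lay between 0.0581 and 0.311. The log2 fold change ranged over all alternatives from 1.20 to 1.44 for Plin4, 1.08 to 1.40 for Fmo2 and 0.45 to 0.52 for Zbtb16.

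Levels per length of exon, in CPM per kilobase, placed Tsc22d3 (13.5 ± 2.81, SD over 12 libraries), Nr3c1 (13.3 ± 1.34), Sgk1 (12 ± 1.47) and Zbtb16 (10.9 ± 1.75) highest. Neighbours in this order differed by less than their SD. Nr3c2 (4.91 ± 0.602), Sult1a1 (4.65 ± 1.38) and Fkbp5 (4.37 ± 0.782) came next, also within 1 SD of each other, followed by Xdh (2.18 ± 0.661), Plin4 (1.81 ± 0.785) and Fmo2 (1.07 ± 0.379). Of the 3 genes with the largest fold changes in the third comparison, Plin4, Fmo2 and Sult1a1, the first 2 were thus the lowest of the 10 in level. They ranked at 44.8 and 36.6% of all tested genes by level per length, and Tsc22d3 at 83.6%.

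Within groups the 8 induced genes did not vary as 1 block. Deviations of log2 CPM from the group mean, which leave out the differences between groups, were correlated over the 12 libraries. Tsc22d3 went with Fkbp5 (Pearson r = 0.79), Sgk1 (0.78) and Plin4 (0.73), and Fkbp5 with Plin4 (0.68) and Sgk1 (0.59). Zbtb16 had lower values with these 4 genes, 0.36 to 0.46. Fmo2 lay between -0.14 and 0.22 with all of these, Xdh between -0.45 and 0.15, and Fmo2 and Xdh stood at 0.48 with each other. Sult1a1 and Zbtb16 ran opposite, at -0.49. Of the 28 pairs, 19 lay above 0 and 6 reached 0.5, with a median of 0.22. Over all pairs of 15982 genes of at least 1 CPM, 49.9% lay above 0 and 10.8% reached 0.5. The points share library and depth, and the values are a description.

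The 2 receptor genes were set beside them in the same way. Nr3c1 stood at 0.66 with Tsc22d3, 0.66 with Sgk1 and 0.50 with Fkbp5, at -0.45 with Fmo2 and -0.56 with Xdh, and at 0.61 with Nr3c2. Knockdown replicate 5 had the highest Nr3c1, Tsc22d3, Fkbp5, Sgk1 and Plin4 and the lowest Fmo2 of its group. In the saline group replicate 3 was above the group mean for all 8 induced genes, and in scramble morphine replicate 4 was above it for 1 of 8. The mean standardised deviation of the 8 genes had r = 0.70 with that of the astrocyte markers, 0.60 with microglia, 0.47 with endothelium and -0.22 with the ribosomal RNA share. For Tsc22d3 alone the value with astrocyte markers was 0.59, for Plin4 0.76, for Fmo2 -0.15 and for Xdh -0.03.

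**Figure D3:**
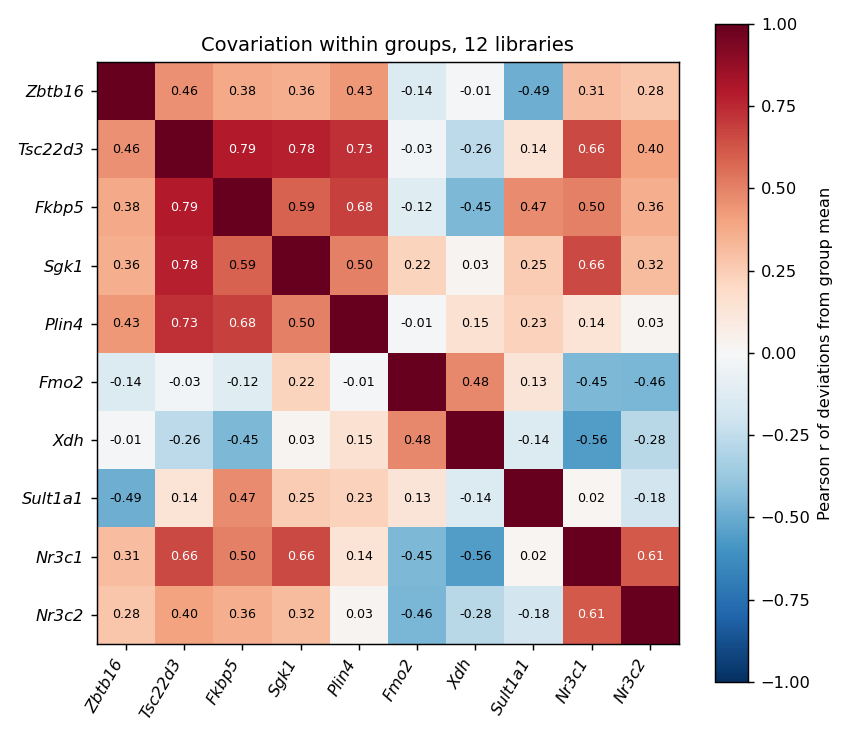
Pearson r between genes (both axes) of the deviation of log2 CPM from the group mean over 12 libraries, from -1 (blue) to 1 (red). Tsc22d3, Fkbp5, Sgk1 and Plin4 form a block of 0.50 to 0.79 that Nr3c1 joins apart from Plin4 (0.14), and Fmo2 and Xdh lie outside it.

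Of 36 other genes that glucocorticoids are known to induce, all tested, edgeR called 0 in any of the 3 comparisons. In morphine against saline with scramble 24 of 36 lay above 0, against 49.5% of all genes, and their median was 0.08 on the log2 scale. At an unadjusted p under 0.05, 7 were higher and 0 lower, against 1.67 and 1.82% of all genes. These were Klf15 and Hif3a, both transcription factors, Glul, glutamine synthetase of astrocytes, Gjb6, an astrocyte gap junction protein, Mertk, a phagocytic receptor, Sdc4, a cell surface proteoglycan, and Cables1. Gjb6 and Cables1 were named after their values were seen. The list of 36 was drawn up with earlier results of these data known, so nothing is read from these counts. All 12 astrocyte markers also lay above 0 in this comparison, and the part of RNA from astrocytes was not tested. Log2 fold changes of the 7 genes included 0.70 for Hif3a (SE 0.26), 0.44 for Sdc4 (SE 0.13), 0.33 for Klf15 (SE 0.10) and 0.20 for Glul (SE 0.07), each with an edgeR adjusted p = 0.999. Klf15 stood at 16.4 to 20.2 CPM with saline and 20.5 to 25.9 with scramble and morphine, without overlap. Between knockdown and scramble with morphine 16 of 36 lay above 0, with a median of -0.04.

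By role, the 16 genes of metabolism, transport and secretion had a median log2 fold change of 0.24 in the first comparison and 0.22 in the third, with 13 above 0 in each. The 7 transcription factors had 0.04 and 0.00, and the 13 genes of signalling and growth had 0.03 and 0.03. Per1, Dusp1 and Nfkbia were chosen after their values were seen, as clock and signalling genes known to respond quickly to the hormone. Their log2 fold changes for morphine against saline were -0.12 (SE 0.12), -0.24 (SE 0.31) and -0.12 (SE 0.14). In that comparison 7 of the 13 signalling genes and 4 of the 7 transcription factors lay above 0. Among these were Ddit4 at 0.09 (SE 0.10), Errfi1 at 0.03 (SE 0.08) and Klf9 at 0.11 (SE 0.06). Ddit4 and Errfi1 were also named after their values were seen. Mertk, at 0.37 (SE 0.09, edgeR adjusted p = 0.29), and Glul, at 0.27 (SE 0.07, edgeR adjusted p = 0.33), had the smallest p of the 36 genes in the third comparison. There 26 of 36 lay above 0, with a median of 0.08.

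Mt1, Mt2 and Lcn2 had unadjusted p-values under 0.05 between the morphine groups and are named after their values were seen. The metallothioneins Mt1 and Mt2, which bind zinc and copper, had log2 fold changes of -1.02 (SE 0.40) and -1.14 (SE 0.42) between knockdown and scramble with morphine, with an edgeR adjusted p of 0.369 and 0.355. Mt1 stood at 211, 189, 73.0 and 267 CPM with saline, 259, 313, 225 and 284 with scramble and morphine, and 120, 89.2, 100 and 223 with the knockdown. The 4 knockdown libraries thus lay below the scramble morphine group, replicate 5 by the least. Lcn2, an acute-phase protein of reactive astrocytes, stood at 16.2, 4.70, 0 and 0.487 CPM in the knockdown group, so its range there rests on replicate 1. It ranged from 0.0639 to 4.38 CPM with saline and from 0 to 0.584 with scramble and morphine.

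The receptor machinery was taken as chaperones and coregulators. Of 12 chaperones that fold and traffic the receptors, edgeR called 0, and medians were 0.06, -0.03 and 0.03 in the order of the comparisons. The co-chaperone Ptges3, known as p23, had a log2 fold change of 0.25 (SE 0.09, edgeR adjusted p = 0.999) in the first. Fkbp4, which encodes FKBP52, the counterpart of FKBP51 that favours receptor transport, stood at 105 ± 4.65, 108 ± 2.17 and 105 ± 10.1 CPM (SD, n = 4), and was named after its values were seen. Of 14 coregulators 0 were called, with 5 higher and 2 lower at an unadjusted p under 0.05 between knockdown and scramble with morphine, against 5.87 and 6.17% of all genes. In that comparison the acetyltransferase gene Crebbp had 0.26 (SE 0.07, edgeR adjusted p = 0.272), the chromatin remodeller gene Arid1a 0.16 (SE 0.06, edgeR adjusted p = 0.324), and the corepressor gene Nrip1, not among those 7, -0.14 (SE 0.07, edgeR adjusted p = 0.456).

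Genes of steroid handling, which include enzymes and efflux transporters, were not called either, 0 of 5 tested. Hsd11b1, which regenerates active corticosterone inside cells, stood at 13.2 ± 3.33 CPM with saline, 17.1 ± 1.58 with scramble and morphine and 10.1 ± 6.15 in the knockdown group (SD, n = 4). The last 2 differed by -0.75 on the log2 scale (SE 0.33, edgeR adjusted p = 0.393), with knockdown replicate 5, at 19.4 CPM, the highest of all 12 libraries and the other knockdown libraries the lowest, at 6.96 to 7.28. H6pd, which supplies its cofactor, stood at 12.1 ± 1.5, 9.80 ± 0.909 and 12.1 ± 2.73 CPM. Hsd11b2, which inactivates the hormone, had 70 counts over all 12 libraries and was not tested. In the corticotropin-releasing hormone system 0 of 4 tested genes were called. Crh, the peptide gene, had a log2 fold change of 0.41 (SE 0.22, edgeR adjusted p = 0.471) between knockdown and scramble with morphine, and the receptor gene Crhr1 had 0.14 (SE 0.12, edgeR adjusted p = 0.677). The second receptor gene, Crhr2, had -0.60 (SE 0.27, edgeR adjusted p = 0.40), the 1 gene of these 4 with an unadjusted p under 0.05.

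**Figure D4:**
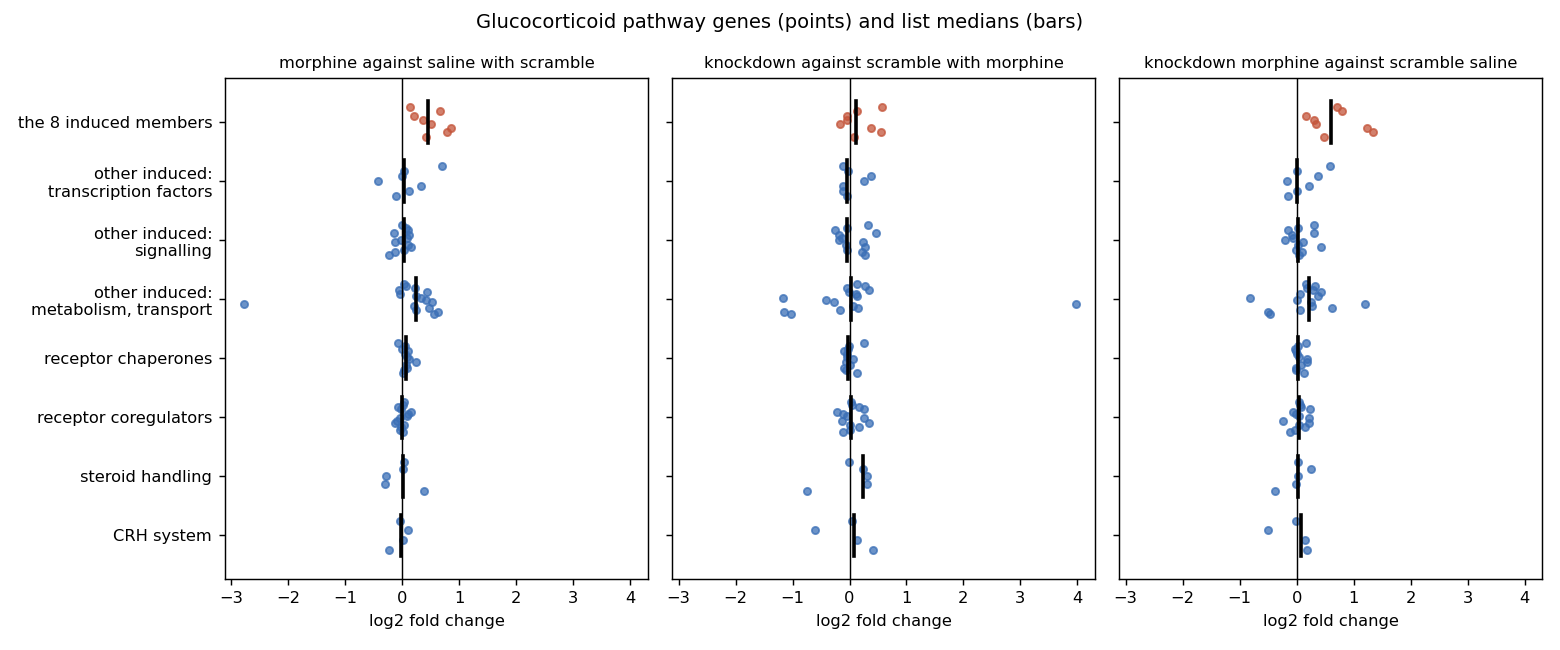
Log2 fold change (horizontal axes) of each tested gene (points) in the 8 induced members and in 7 further lists of the glucocorticoid pathway (vertical axis), with the list median as a bar, in the 3 comparisons. The members were chosen for their values in the left and right panels, where their medians are 0.46 and 0.60, and the genes of metabolism and transport have the next highest medians there (0.24 and 0.22); the far points of that list are Lcn2.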

How the data were processed

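The authors deposited whole-number counts per gene for 12 libraries and no normalized values. Per the submitters' processing notes, HISAT2 2.0.4, StringTie 1.3.4d, edgeR, DESeq2 and cutadapt 1.9 were used with build mm10, without stated roles or order. Annotation release and strand setting: not given in the sources used here. Of 55401 gene IDs, 55141 matched a symbol; coordinates and exon lengths came from GENCODE M21, on the same assembly. Groups came from the treatment label and replicate numbers from the titles.

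Counts were fitted with edgeR 4.0.16 (R 4.3.3): filterByExpr with a minimum of 10 counts, TMM scaling, and quasi-likelihood fits (robust) of 3 group means to all 12 libraries. P-values are two-sided, adjusted by Benjamini-Hochberg over 21958 genes at 0.05. SE is the size of the log2 fold change divided by the square root of F, and log2 CPM used a prior count of 2. DESeq2 1.42.0 was an alternative. The steps were tested on simulated data. Within-group pairs of libraries differed by more than sampling noise (chi-square per gene of at least 13.1). Since nothing says that libraries are separate animals, p-values reflect only how these samples vary, perhaps technically.

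The members, gene lists, naming rule and alternatives were chosen with earlier results of these data known. All members were named, and of each pathway list up to 3 genes with the smallest p over the comparisons; names beyond that rule are marked as chosen after their values were seen.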

Additional observations from a re-analysis of the deposited data

How the results depend on the processing

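Across groups, 9 library pairs share a replicate number. Their deviations from group means had r of -0.09 to 0.27, with 5 pairs over 0.1, and 6 of 12 libraries correlated best with their own number, so not every pair passed 0.1 and the numbers were not taken to pair the samples; whether some share a batch or day was not tested. With the replicate number as a block, edgeR called 1, 2 and 0 genes in the order of the comparisons and no member, in place of 0, 0 and 3. DESeq2 called 6, 164 and 152 genes, with 2 members in the first comparison and 5 in the last (Zbtb16, Plin4, Fmo2, Sult1a1 and Xdh). Without the filter on low counts, 2 genes passed in the second comparison and 5 in the last. Fitted on the compared groups alone, 1 gene passed in the first comparison and 5 in the last, with 1 member, Plin4. With the ribosomal RNA share as a covariate 0 genes and 0 members passed in the last comparison. Leaving out 1 library gave 0 to 375 genes and 0 to 1 members in the second comparison and 0 to 55 genes and 0 to 3 members in the last.

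Sign changes touched 6 of the 10 members, 5 of them in the second comparison. In the first comparison Nr3c1 was at 0.02 with the block, 0.01 without scramble morphine replicate 1 and 0.041 without scramble saline replicate 5 (leaving out 1 library, -0.044 to 0.041), and Nr3c2 was at -0.02 with the covariate. In the second, the covariate gave 0.078 for Tsc22d3, 0.18 for Sgk1, 0.051 for Nr3c2 and -0.20 for Sult1a1, Fkbp5 was at 0.021 without scramble morphine replicate 3 (range -0.15 to 0.021), and Sgk1 at 0.022 without knockdown replicate 1 (range -0.13 to 0.022). In the last, Nr3c2 was at 0.031 with the covariate. The cause of these changes was not tested. The 8 induced genes lay above 0 under all 18 alternatives in the first and last comparisons. Fmo2, with 122 to 473 counts per library, is the member that depth limits most.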

Other observations

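The genes whose deviations from the group mean were most like the mean of the 8 induced genes, among 11481 candidates of at least 5 CPM outside the lists, were Dmp1 (r = 0.90), Eva1a (0.89), Golm1 (0.89), Irf2 (0.85), Galnt4 (0.84) and Zfp276 (0.83), over 12 libraries. These are the extremes of many candidates and are a description. Dmp1, Eva1a, Golm1 and Irf2 had their highest group mean with scramble and morphine, as did Tsc22d3, Fkbp5 and Sgk1. Galnt4 had its highest with saline. Dmp1, a secreted matrix phosphoprotein, stood at 8.02, 10.7 and 8.26 CPM on average with scramble and saline, scramble and morphine, and knockdown and morphine. Golm1, a Golgi membrane protein, stood at 20.9, 24.5 and 20.8 CPM, and Eva1a, a regulator of autophagy, at 6.79, 8.47 and 7.30. Zfp276, a zinc finger protein, stood at 20.3, 23.4 and 23.8 CPM, with a log2 fold change of 0.23 (SE 0.07) between the knockdown and saline groups. Between knockdown and scramble with morphine, Zfp276 was at 0.02 (SE 0.07), Irf2 at -0.09 (SE 0.09) and Galnt4 at -0.12 (SE 0.21). In that comparison Eva1a was at -0.21 (SE 0.20), Golm1 at -0.24 (SE 0.16) and Dmp1 at -0.37 (SE 0.19).

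Gm10649, a noncoding gene transcribed away from the Nr3c2 promoter and overlapping its exons by up to 155 bases on the other strand, averaged 0.911 ± 0.207 CPM with saline, 0.898 ± 0.172 in the scramble morphine group and 0.509 ± 0.195 in the knockdown group (SD, n = 4). In all, 3 of 4 knockdown libraries, at 0.417, 0.398 and 0.418 CPM, lay below all libraries of the other groups, and replicate 5 was at 0.801. Counts of Gm10649 were 16 to 63 per library, and it was named after its values were seen. None of the 30 sets of 4 values, 10 genes in 3 groups, held a library far enough from the others to pass a Dixon test at 95%.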
